A study of Homo sapiens with 18 samples.

Results

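The genes described here encode the subunits of the mitochondrial respiratory chain and ATP synthase that are carried in the nuclear genome. Members were taken by gene symbol, from the NDUF, SDH, UQCR, COX and ATP5 families. The rule found 74 of the 55765 gene symbols in the count tables. They comprised 36 complex I subunits, 4 of complex II, 8 of complex III, 11 of complex IV and 15 of complex V, with NDUFA4 counted under complex IV. All 74 had enough reads to be tested in both series, among 18012 genes tested in the first and 18732 in the second.

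Complexes I and II pass electrons from NADH and succinate to ubiquinone, complex III passes them on to cytochrome c, and complex IV to oxygen. Complexes I, III and IV pump protons while doing so, and complex V, the ATP synthase, uses the proton gradient to make ATP. A few core subunits are encoded in the mitochondrial genome, so the complexes are assembled from the products of both genomes with the help of dedicated assembly factors, and nuclear respiratory factors and the PGC-1 coactivators are known to drive transcription of the nuclear part.

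RNA was sequenced from OVCAR3, an established line of high-grade serous ovarian carcinoma, in 18 libraries, 3 per group. All libraries came from this 1 line, grown in RPMI with 2% serum, with no genetic change given for any group. In the first series cells received 0.5 µg/ml of IgA or of IgG with no antigen named, or were left untreated. In the second they received 0.5 µg/ml of IgA against BDNF, a neurotrophin, or against TSPAN7, a tetraspanin, or were left untreated. The labels give 24 h of incubation, whereas another description of the study gives 8 h. The replicates of the first series are described as separate experiments. For the second series neither the labels nor the methods say whether they were separate cultures, so p-values there measure the spread between these samples, which may be technical. The questions were whether the subunit genes responded to IgA relative to IgG and to no antibody, and whether they responded to the antigen-specific IgAs. In bulk RNA a change in the number of cells and a change in RNA per cell cannot be told apart.

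First-series libraries totalled 27920733 to 42371474 counts and second-series libraries 39254350 to 47381836, and the 74 genes took from 0.592% to 0.863% of a library. All 12 epithelial and serous ovarian markers had at least 533 counts in every library, and no leukocyte marker exceeded 56 (summed over 7 markers, 34 to 90). Some epithelial and serous markers differed in every IgA library of the first series, in both directions. WT1 had 2028, 2807 and 1093 normalised counts with IgA, against 4152 to 5100 in the IgG and untreated libraries. SOX17 had 907, 1306 and 842 against 2110 to 2825, and KRT8 was also lower. PAX8 (21885 to 27819 against 17506 to 20949) and KRT7 (26546 to 29154 against 19292 to 21702) were higher. Of 6 fibroblast and endothelial markers, 4 had at most 100 counts in every library (summed over the 6, 2052 to 4078). The others were the collagen genes COL1A1 and COL1A2, and COL1A2 had 3534 normalised counts in IgA replicate 3 and 2087 in IgA replicate 1, against 1421 to 1621 in the other 7 libraries of the first series. The IgA libraries of the first series stood apart. The mitochondrial genome gave 19.1% of the counts in IgA replicate 3, against 5.75% to 8.32% in the other 8 libraries. Cytosolic ribosomal protein genes gave 6.16% in IgA replicate 1 and 4.20% in IgA replicate 3, against 4.72% to 5.16% in the others. Between 16062 and 16959 genes reached 10 counts in the IgA libraries, and at least 17136 did in each IgG or untreated library. Results that rest on these libraries are given with and without them, and the part of these shares and marker levels in the results was not tested.

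In untreated cells of the first series the members spanned a wide range of levels. Levels are normalised counts per kilobase of the canonical transcript, where normalised counts are read counts rescaled so that every library of a series has the same effective size. COX6B1, a small subunit at the intermembrane face of complex IV, had the highest level, 24390.2 ± 599 per kb (SD, n = 3), followed by ATP5J, coupling factor 6 of the ATP synthase, at 24139 ± 1790.6. Within complex I the highest level was that of NDUFA3 (18546 ± 947) and the lowest that of NDUFA9 (25.9 ± 2.18). Complex II was the most even, from 923 ± 115 for the membrane anchor SDHD to 2374 ± 171 for the iron-sulphur subunit SDHB. Complex III ranged from 334 ± 17.6 for UQCRFS1, the Rieske iron-sulphur protein, to 7572 ± 269.7 for UQCRH. The lowest levels in complexes IV and V were 817 ± 29.9 for COX7B and 1087 ± 53.8 for ATP5E. Long canonical transcripts, such as those of NDUFA9 (8356 bases) and ATP5E (3610 bases), lower a level given per kilobase. NDUFA9 was also low before division by length, at 196 to 232 normalised counts, where NDUFS1 (11660 bases) had 3142 to 3663. It was not alone in this, since NDUFV2 had 86 to 115 and NDUFA11 247 to 270. NDUFA9 overlaps 2 genes on its own strand, so its reads may be shared, and the reason for its low level was not tested.

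Summed over members, IgA-treated libraries of the first series held 9380, 7908 and 7404 CPM (replicates 1 to 3), the usual depth-scaled read count taken over the effective library size. IgG-treated libraries held 7428, 7912 and 7161, and untreated libraries 7935, 7988 and 7531. IgA replicate 1 was above all others, while IgA replicates 2 and 3 lay within the range of the IgG and untreated libraries. It had the highest normalised count of the 9 libraries for 52 of 74 members (70.3%), against 17.4% of all genes tested. IgA replicate 3 had the lowest for 18 members (24.3%), against 27.4% of all genes tested. The complexes differed in this. Complex II summed to 252, 258 and 238 CPM in IgA replicates 1 to 3, with replicate 2 the highest. Complex IV summed to 1985 in IgA replicate 1, 1598 and 1569 in the other IgA libraries, and 1364 to 1559 in the IgG libraries, so that all IgA libraries lay above those of IgG. Complex I summed to 3286 in IgA replicate 1, but to 2717 and 2508 in the other two, against 2565 to 2809 with IgG.

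**Figure D1:**
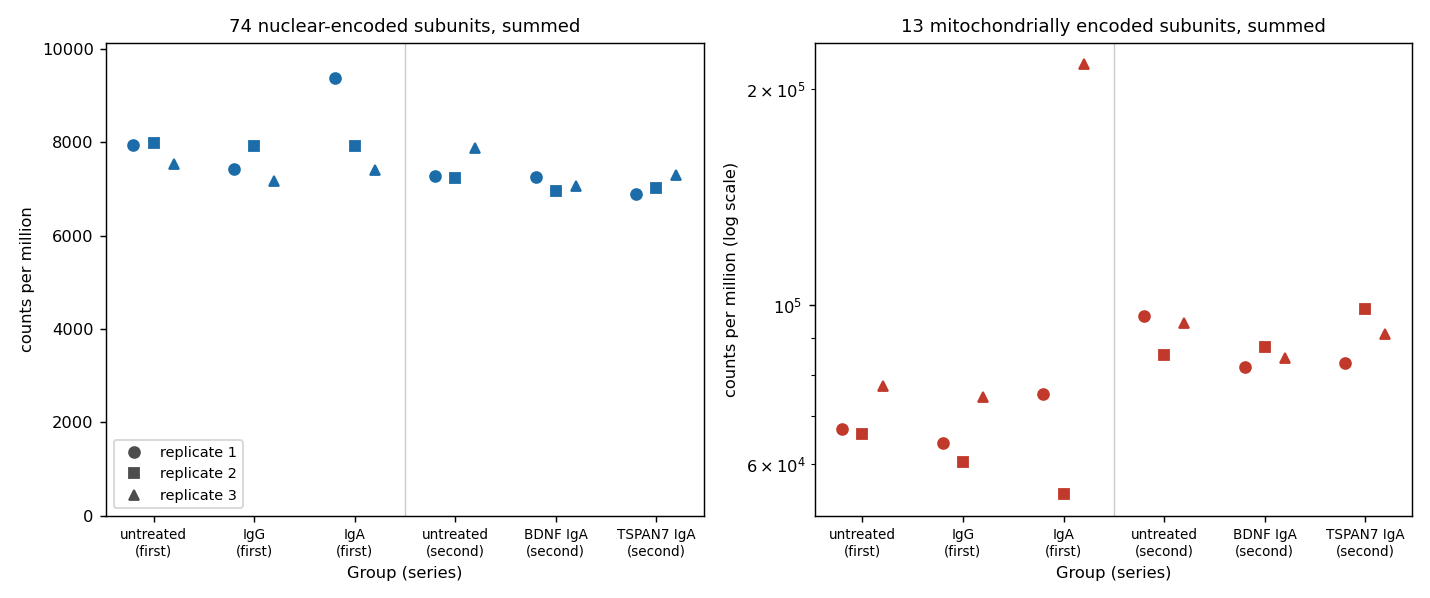
Summed level in CPM of the 74 members (left, linear axis) and of the 13 mitochondrially encoded subunits (right, log axis) in every library, by group, with a marker shape per replicate. On the left IgA replicate 1 lies above the other 8 libraries of the first series (9380 for all members), and untreated replicate 3 above the other 8 of the second (7865); on the right IgA replicate 3 stands clear of the rest.

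Against IgG, 10 of the 74 genes were higher in IgA-treated cells and 1 was lower at an adjusted p under 0.05 (edgeR quasi-likelihood F test, two-sided, Benjamini-Hochberg adjustment over all genes tested). Of all genes tested 12.6% were higher and 11.6% lower, so the share of members called higher was close to that of all genes. The median log2 fold change of members was 0.15, against -0.01 over all genes tested, and 59 members had positive and 15 negative values. The higher genes were 5 accessory subunits of complex I, 1 subunit of complex III and 4 of complex IV, and the lower gene was a core subunit of complex I. No member of complexes II and V was called. The medians were 0.25 in complex I, 0.08 in II, 0.14 in III, 0.22 in IV and 0.09 in V.

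**Figure D2:**
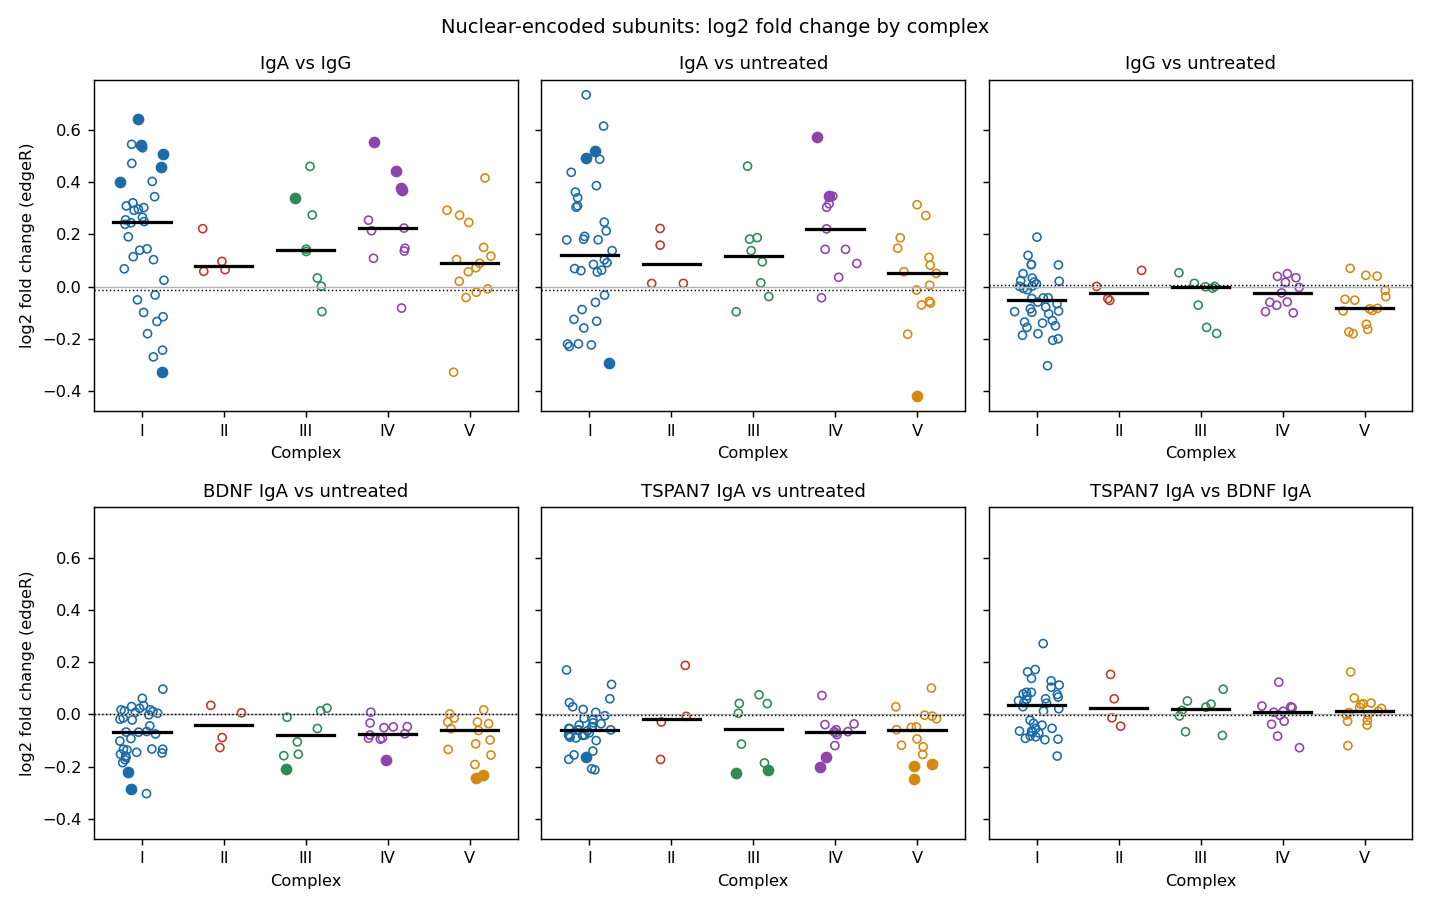
Log2 fold change of every member in the comparisons made, by complex. Filled points passed the test, open points did not, black bars are medians of a complex and the dotted line is the median of all genes tested; the called genes are mostly above 0 with IgA and all below 0 with BDNF IgA or TSPAN7 IgA.

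NDUFC1, a small accessory subunit in the membrane arm of complex I, changed most. Its normalised counts were 1785, 1560 and 1521 with IgA, 1062, 1073 and 979 with IgG, and 1328, 1428 and 1088 in untreated cells. The IgA libraries lay above all IgG libraries and above all untreated ones. The log2 fold change against IgG was 0.64 ± 0.12 (SE, n = 3, edgeR adjusted p = 0.00255). That against untreated cells did not pass the test, and the untreated libraries lay above those of IgG. NDUFC1 lies on the minus strand of chromosome 4 (GRCh37, chr4:140188034-140223705) and overlaps MGARP and NAA15, and as no strand setting is given for the counting, reads may be shared.

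COX6C, a small nuclear subunit of complex IV, had 1551, 1348 and 1804 normalised counts with IgA. It had 1070, 1037 and 1089 with IgG, and 1017, 1130 and 1012 in untreated cells. IgA libraries were above both other groups without overlap. The log2 fold change was 0.56 ± 0.12 against IgG (edgeR adjusted p = 0.00508, n = 3) and 0.57 ± 0.12 against untreated cells (edgeR adjusted p = 0.0041). The call against untreated cells held in all 18 alternative analyses, and those of COX6C and NDUFC1 against IgG in 17. With libraries scaled by their totals alone the values were 0.31 for COX6C (edgeR adjusted p = 0.074) and 0.41 for NDUFC1 (0.0584). COX6C has 17 named pseudogenes, with which reads could be shared.

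Other accessory subunits of complex I showed the same order of groups with more spread. NDUFA1, in the membrane arm, had 4674, 3690 and 3978 normalised counts with IgA against 2932, 3307 and 2735 with IgG (log2 fold change 0.46 ± 0.12, n = 3, edgeR adjusted p = 0.0122). NDUFA12, in the peripheral arm, had 2533, 1874 and 1883 against 1531, 1603 and 1185 (0.54 ± 0.15, 0.0213). NDUFB7, on the intermembrane side, had 1804, 1074 and 1232 against 976, 1073 and 837 (0.51 ± 0.17, 0.0417). IgA replicate 1 was the highest library for each, and for NDUFB7 the lowest IgA library and the highest IgG library differed by only 1 count. NDUFS4, a peripheral-arm subunit, had 1554, 1430 and 1251 against 1122, 1099 and 985 (0.40 ± 0.12, 0.024). Without IgA replicate 1 the call was lost for NDUFA12 (0.38), NDUFB7 (0.26) and NDUFS4 (0.33), but kept for NDUFA1 (0.35). Without IgG replicate 3 it was lost for NDUFA1 (0.39, edgeR adjusted p = 0.0624), NDUFA12 (0.42), NDUFB7 (0.41) and NDUFS4 (0.34). Without IgG replicate 2 it was lost for NDUFS4 (0.42) and NDUFB7 (0.59), and NDUFB7 also lost it without IgG replicate 1 or any 1 of the untreated libraries (0.51 to 0.52).

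In complex IV, COX7A2 had 6812, 5352 and 5148 normalised counts with IgA against 4235, 4805 and 3703 with IgG (log2 fold change 0.44 ± 0.13, n = 3, edgeR adjusted p = 0.0227). COX7C had 12199, 9594 and 8822 against 7676, 8591 and 7389 (0.37 ± 0.12, 0.0384). NDUFA4, first described with complex I and now placed in complex IV, had 4765, 3829 and 3851 against 3301, 3570 and 2708 (0.38 ± 0.13, 0.0437). Groups did not overlap, and IgA replicate 1 was the highest library for all of them. Without it the calls were lost, at 0.30 for COX7A2, 0.22 for COX7C and 0.26 for NDUFA4. COX7A2 also lost its call without IgG replicate 1 (0.44) or 3 (0.35). COX7C and NDUFA4 lost theirs without any 1 library of the IgG or untreated groups (0.27 to 0.46). COX4I1, the largest nuclear subunit of this complex, had a value of 0.22 that did not pass the test (edgeR adjusted p = 0.124), although its groups did not overlap.

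The remaining higher gene was UQCRB, which contributes to ubiquinone binding in complex III. It had 9709, 8327 and 9110 normalised counts with IgA against 7275, 7001 and 7196 with IgG (log2 fold change 0.34 ± 0.10, n = 3, edgeR adjusted p = 0.032). Untreated libraries spread from 7110 to 8996 and overlapped with those of IgA. The call was lost without IgA replicate 1 (0.28), any 1 IgG library (0.32 to 0.35) or untreated replicate 1 (0.33). UQCRC1 and UQCRC2, the core proteins of complex III, had values of -0.10 and 0.00 against IgG and did not pass the test.

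NDUFS1, the large iron-sulphur core subunit that receives electrons in the peripheral arm of complex I, went the other way. It had 2879, 2647 and 2668 normalised counts with IgA, 3378, 3442 and 3448 with IgG, and 3663, 3234 and 3142 in untreated cells. All IgA libraries were below all others. It fell by 0.33 ± 0.09 on the log2 scale against IgG (n = 3, edgeR adjusted p = 0.0245) and by 0.29 ± 0.09 against untreated cells (edgeR adjusted p = 0.0376). It kept its call against IgG without IgA replicate 1 (fell by 0.37), as did COX6C, NDUFC1 and NDUFA1, and lost it without any 1 IgG library (fell by 0.32 to 0.34). NDUFV1, the flavoprotein next to it in complex I, had a value of 0.19 against IgG (edgeR adjusted p = 0.211).

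**Figure D3:**
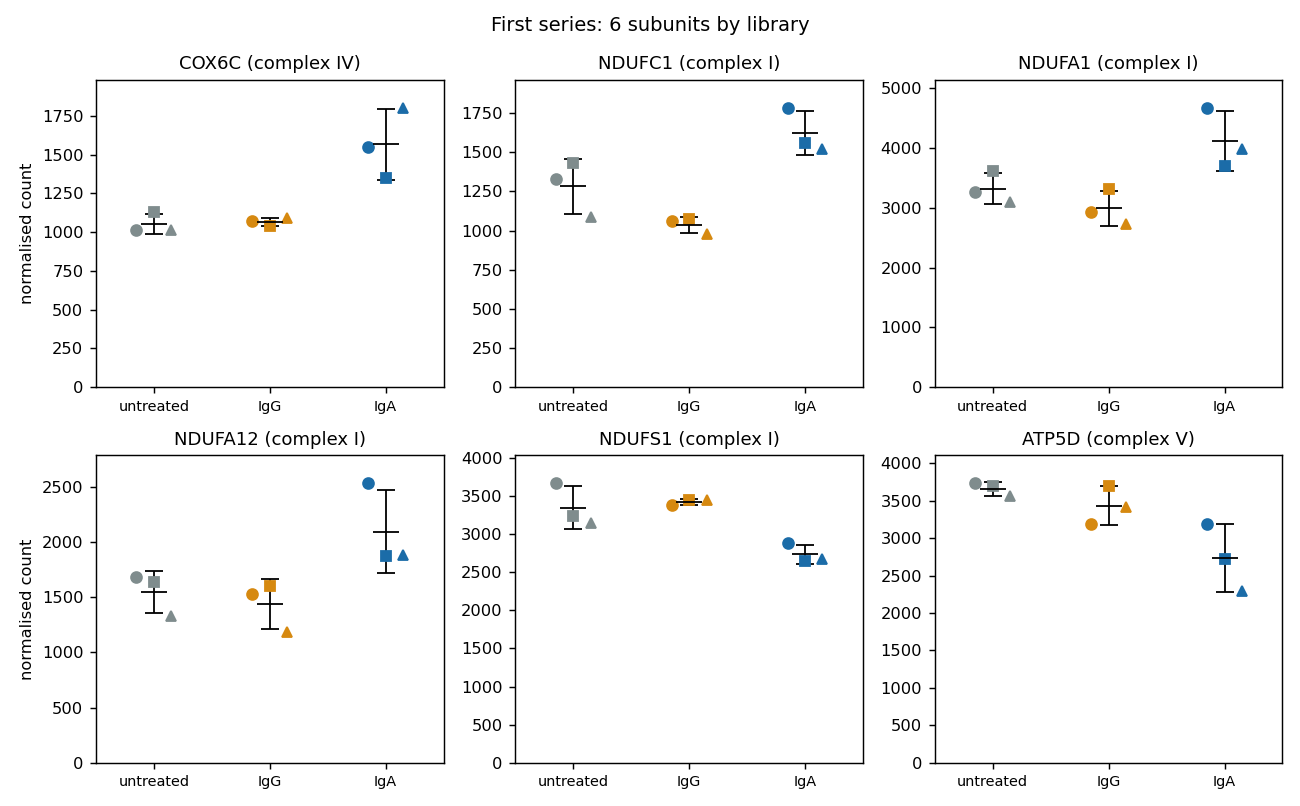
Normalised counts of 6 members in each library of the first series, with the mean and SD of each group (n = 3). COX6C, NDUFC1, NDUFA1 and NDUFA12 lie higher with IgA than with IgG and NDUFS1 lower, and ATP5D lies below its untreated values.

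Against untreated cells, 4 members were higher with IgA and 2 lower, where 12.9% of all genes tested were higher and 12.1% lower. The median was 0.11, against -0.01 for all genes tested. COX6C, COX7C and NDUFB7 were called higher here as well as against IgG, both comparisons using the same IgA libraries. The values against untreated cells were 0.35 ± 0.12 for COX7C (edgeR adjusted p = 0.0492, n = 3) and 0.52 ± 0.17 for NDUFB7 (0.0372). Without IgA replicate 1 both were lost, at 0.20 and 0.27. NDUFB7 also lost its call without any 1 untreated library (0.52) or IgG replicate 1 or 2 (0.52), and COX7C without any 1 library of either control group (0.31 to 0.38).

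NDUFA9, an accessory subunit near the ubiquinone site of complex I, was the fourth. It had 270, 347 and 295 normalised counts with IgA against 196, 232 and 220 in untreated cells. The log2 fold change was 0.49 ± 0.17 (n = 3, edgeR adjusted p = 0.0452), and the call was lost without IgA replicate 2 (0.38) or any 1 IgG or untreated library (0.43 to 0.54). ATP5D, the delta subunit of the central stalk of the ATP synthase (GRCh37, chr19:1241745-1244824), was lower. It had 3191, 2726 and 2287 normalised counts with IgA, 3730, 3690 and 3557 in untreated cells, and 3185, 3697 and 3421 with IgG. IgA libraries lay below the untreated libraries, and IgA replicate 1 just above the lowest IgG library. It fell by 0.42 ± 0.12 on the log2 scale against untreated cells (n = 3, edgeR adjusted p = 0.0212), and by 0.41 to 0.44, without passing the test, when any 1 untreated library was left out. NDUFS1 lost its call against untreated cells without IgA replicate 2, any 1 untreated library, or IgG replicate 1 or 2 (fell by 0.23 to 0.33).

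The catalytic subunits of the ATP synthase, ATP5A1 and ATP5B, had values of 0.12 and 0.10 against IgG and 0.19 and 0.15 against untreated cells, none past the test. The same held for the 3 genes of the proton-translocating c subunit, ATP5G1, ATP5G2 and ATP5G3, whose values against IgG were 0.07, 0.27 and 0.02. In complex II the values against IgG were 0.10 for SDHA, the flavoprotein, 0.22 for SDHB, and 0.06 each for the anchors SDHC and SDHD.

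The calls depended on single IgA libraries in opposite directions. Without IgA replicate 3, 26 members were higher and 1 lower against IgG, with a median of 0.21, while 12.9% of all genes tested were higher and 12.9% lower. Against untreated cells there were then 16 higher and 2 lower, where 13.2% of all genes tested were higher and 12.8% lower. Without IgA replicate 1, 4 were higher and 2 lower against IgG, with a median of 0.09, and 2 higher and 3 lower against untreated cells, with a median of 0.02. Of all genes 10.4% were then higher and 9.56% lower against IgG, and 10.9% and 9.70% against untreated cells. COX6C, NDUFC1, NDUFA1 and NDUFA9 were the 4 against IgG. The median member value in a single library, relative to the IgG mean, was 0.34 for IgA replicate 1, 0.11 for replicate 2 and 0.05 for replicate 3, and -0.00, 0.09 and -0.08 for the IgG libraries. IgA replicates 2 and 3 lay within or near the range of the IgG libraries.

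**Figure D4:**
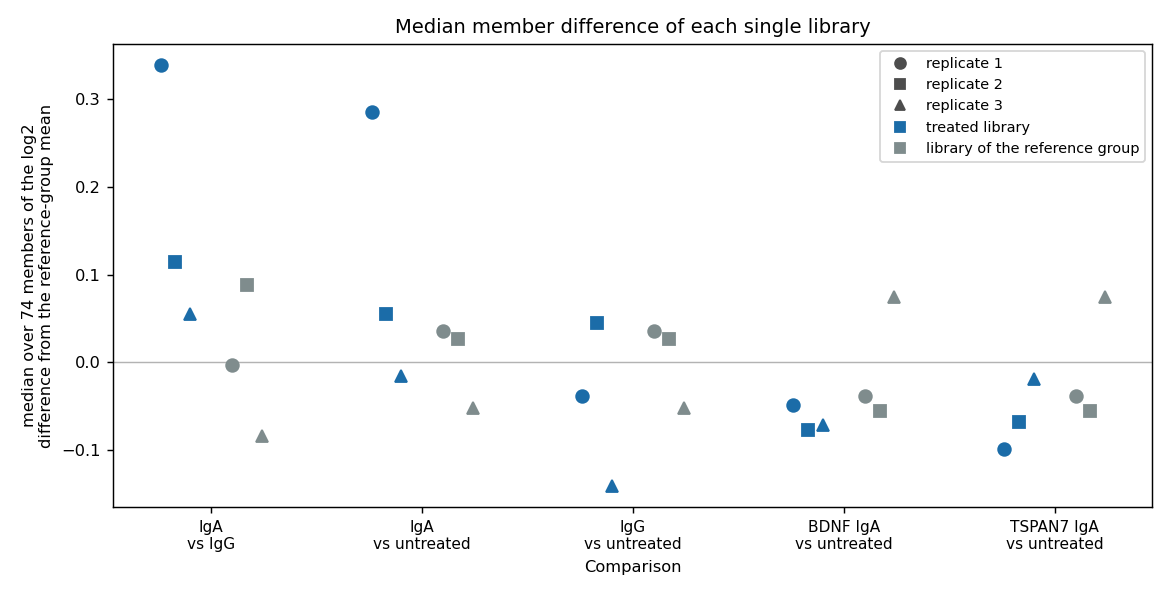
Median log2 difference of the members in each library from the mean of the reference group, for 5 comparisons, with treated libraries in blue and those of the reference group in grey. IgA replicate 1 stands at 0.34 against IgG and the other IgA libraries at 0.11 and 0.05; untreated replicate 3 of the second series stands at 0.07.

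Some members that did not pass the test were set by IgA replicate 1, and are named here after their values were seen. NDUFA11, a membrane-arm subunit of complex I, had 682, 285 and 324 normalised counts with IgA and 247 to 319 in the IgG and untreated libraries. NDUFA13 had 1062, 523 and 624, against 462 to 547. UQCRQ, a small subunit of complex III, had 4977, 3219 and 3112 with IgA and 2406 to 3109 in the other groups. ATP5L had 7767 in IgA replicate 1, and 4446 and 4573 in the others, within its untreated range of 4364 to 5120. In each case replicate 1 alone stood well clear.

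With libraries scaled by their totals alone, the median of all genes tested moved to -0.25 against IgG and -0.22 against untreated cells. Member medians were then -0.08 and -0.10, which remained 0.17 and 0.12 above those of all genes, but 0 members passed as higher and 4 as lower in the comparison with IgG, where 4.85% of all genes were higher and 20.2% lower. In that with untreated cells 1 was higher, COX6C, and 4 were lower, against 5.56% and 18.3% of all genes. Relative to all genes the member medians were positive under both scalings, while their own sign differed.

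IgG against untreated cells gave no called member in either direction, and 0.0% of all genes tested were called by edgeR. DESeq2 also called 0 members. At an unadjusted p under 0.05 there were 2 members and 89 of the 18012 genes tested, the members being NDUFB3 with a log2 fold change of -0.20 and NDUFC1 with -0.30. The spread behind these p-values was estimated over all 9 libraries of the series, the IgA libraries among them. A small count of low p-values therefore does not show that IgG had no effect. With only the 6 IgG and untreated libraries in the fit, 0 members were called as well. The member median was -0.05 against 0.00 for all genes.

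In the second series no member was higher with either antigen-specific IgA and several were lower. With BDNF IgA 6 of 74 were lower and 0 higher, where 3.18% of all genes tested were lower and 4.49% higher. With TSPAN7 IgA 8 were lower and 0 higher, where 4.08% of genes were lower and 4.46% higher. Member medians were -0.07 and -0.06, against 0.00 and -0.00 over all genes, with 56 and 59 negative values among 74. The called values fell by 0.16 to 0.28 on the log2 scale, smaller changes than those called in the first series. The spread between replicates was also smaller, with a common dispersion of 0.00303 against 0.0307. ATP5J, ATP5L, NDUFS6, UQCRB and COX7B were called lower with both IgAs. These comparisons share the 3 untreated libraries, so their values are set side by side and are not independent of each other.

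Untreated replicate 3 stood above the others. Summed over members, untreated libraries held 7273, 7235 and 7865 CPM, BDNF IgA libraries 7246, 6955 and 7067, and TSPAN7 IgA libraries 6897, 7026 and 7303. Untreated replicate 3 had the highest normalised count of the 9 libraries for 48 members (64.9%), against 11.9% of all genes tested. Without it the calls were 3 lower for BDNF IgA, and 4 lower and 2 higher for TSPAN7 IgA, and both medians moved to -0.02. Of all genes 1.90% were then lower with BDNF IgA, and 2.26% lower and 2.87% higher with TSPAN7 IgA.

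The genes lower with both IgAs belong to 4 complexes. ATP5J, coupling factor 6 in the peripheral stalk of the ATP synthase, had 10023, 9437 and 9719 normalised counts with BDNF IgA. It had 9618, 9988 and 9522 with TSPAN7 IgA, against 10733, 11764 and 12082 in untreated cells. Every treated library was below every untreated one. It fell by 0.25 ± 0.05 on the log2 scale with each (n = 3, edgeR adjusted p = 0.00216 and 0.00169), and both calls held in all 18 alternatives. ATP5J lies at chr21:27088815-27107984 on the minus strand (GRCh37) and overlaps GABPA and JAM2 on the other strand.

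ATP5L, subunit g in the membrane part of the ATP synthase, had 5387, 5273 and 5307 normalised counts with BDNF IgA and 5409, 5481 and 5563 with TSPAN7 IgA, against 6000, 6292 and 6467 in untreated cells. Again no treated library reached the lowest untreated one. It fell by 0.23 ± 0.04 with BDNF IgA (n = 3, edgeR adjusted p = 0.00143) and by 0.19 ± 0.04 with TSPAN7 IgA (0.00653), and the calls held in all 18 alternatives.

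NDUFS6, a zinc-binding accessory subunit of the peripheral arm of complex I, had 5968, 5649 and 5424 normalised counts with BDNF IgA and 6035, 5777 and 5946 with TSPAN7 IgA, against 6383, 6889 and 6594 in untreated cells. The groups did not overlap. It fell by 0.22 ± 0.05 with BDNF IgA (n = 3, edgeR adjusted p = 0.00407), a call held in all 18 alternatives. With TSPAN7 IgA it fell by 0.16 ± 0.05 (0.031), and the call needed TSPAN7 IgA replicates 2 and 3 and untreated replicates 2 and 3, since leaving out any of them lost it (fell by 0.13 to 0.16).

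UQCRB of complex III had 7086, 6569 and 6735 normalised counts with BDNF IgA and 6585, 6698 and 7021 with TSPAN7 IgA, against 7625, 7668 and 8261 in untreated cells. It fell by 0.21 ± 0.05 with each (n = 3, edgeR adjusted p = 0.0068 and 0.00506). The BDNF IgA call was lost without untreated replicate 3 (fell by 0.17, edgeR adjusted p = 0.0549), and that of TSPAN7 IgA held in all 18 alternatives. UQCRB was thus higher with IgA than with IgG in the first series and lower with the antigen-specific IgAs than untreated in the second, where the controls differ and the difference between the series was not tested.

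COX7B, a small subunit of complex IV, had 2160, 2114 and 2097 normalised counts with BDNF IgA and 2144, 2054 and 2057 with TSPAN7 IgA, against 2368, 2289 and 2536 in untreated cells. It fell by 0.18 ± 0.05 (n = 3, edgeR adjusted p = 0.0343) and 0.20 ± 0.05 (0.0143). Without untreated replicate 3 both calls were lost (fell by 0.13 and 0.16). The BDNF IgA call was also lost without BDNF IgA replicate 1 or 3, TSPAN7 IgA replicate 2 or untreated replicate 1 (fell by 0.17 to 0.19), and that of TSPAN7 IgA without its replicate 2 or 3 (fell by 0.19).

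**Figure D5:**
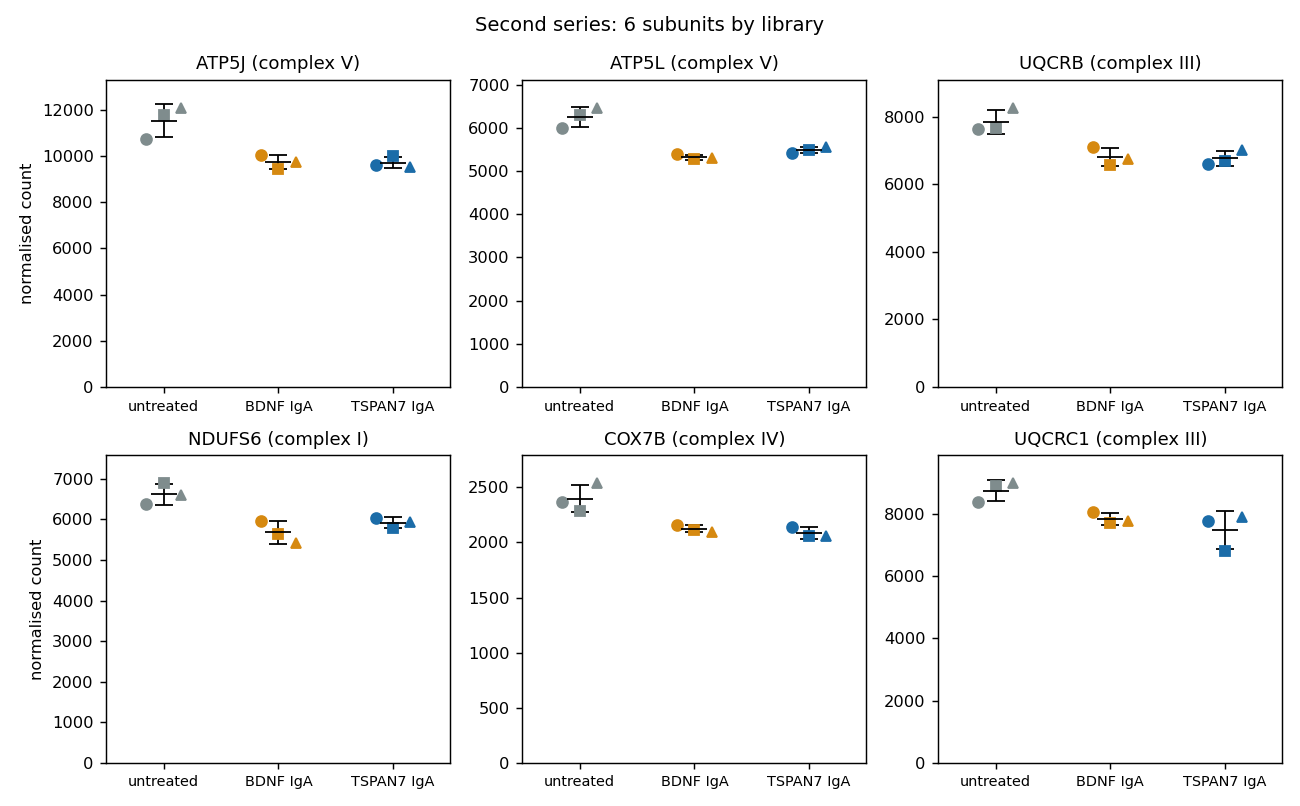
Normalised counts of 6 members in each library of the second series, with the mean and SD of each group (n = 3). For ATP5J, ATP5L, UQCRB, NDUFS6, COX7B and UQCRC1 every library treated with BDNF IgA or TSPAN7 IgA lies below every untreated one.

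Promoter sequence is shown for 4 of the genes lower with both IgAs. They were picked by these calls, which share the untreated libraries, and common regulation was not tested. Promoters of respiratory genes are known to carry sites for the factors NRF1, GABP (ETS family) and YY1. RefSeq promoters on GRCh38.p14 matched 62 of the 74 members, and each line is the 120 bases before the annotated start, 5′ to 3′ on the strand of the gene. They are ATP5J (chr21:25735055-25735174, minus strand), NDUFS6 (chr5:1801287-1801406, plus strand), ATP5L (chr11:118401486-118401605, plus strand) and COX7B (chrX:77899348-77899467, plus strand). Capitals mark GCGCATGC, an NRF1 motif, or AAGATGGCG, a YY1 motif.
ATP5J: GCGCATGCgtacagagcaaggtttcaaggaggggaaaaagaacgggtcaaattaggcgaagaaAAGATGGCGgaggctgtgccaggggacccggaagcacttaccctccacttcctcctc
NDUFS6: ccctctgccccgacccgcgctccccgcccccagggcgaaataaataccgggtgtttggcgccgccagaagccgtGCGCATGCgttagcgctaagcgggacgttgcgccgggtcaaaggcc
ATP5L: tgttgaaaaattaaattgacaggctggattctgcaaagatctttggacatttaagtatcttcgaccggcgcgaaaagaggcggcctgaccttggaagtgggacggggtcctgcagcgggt
COX7B: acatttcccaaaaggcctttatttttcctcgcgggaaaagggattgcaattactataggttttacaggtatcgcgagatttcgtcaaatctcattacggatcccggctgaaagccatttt

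In windows from 250 bases before to 50 after the start, searched on both strands, GCGCATGC was found in 13 of 62 member promoters (21%) and in 3.27% of 27305 promoters. CCGGAAGT, an ETS motif, was found in 9 (14.5%) against 4.44%, and AAGATGGCG in 8 (12.9%) against 1.85%. Of the 4 promoters shown, those of ATP5J and NDUFS6 held a match in the 120 bases and those of ATP5L and COX7B did not. A match is a description of letters and says nothing of binding in these cells.

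Further calls were made with 1 of the IgAs. NDUFB1, an accessory subunit in the membrane arm of complex I, had 983, 951 and 912 normalised counts with BDNF IgA against 1090, 1050 and 1322 in untreated cells. It fell by 0.28 ± 0.08 (n = 3, edgeR adjusted p = 0.0253), and without untreated replicate 3 by 0.17 with the call lost. It was also lost without BDNF IgA replicate 1 (fell by 0.31) or 3 (fell by 0.26). UQCRC1, core protein 1 of complex III, had 7768, 6790 and 7889 with TSPAN7 IgA against 8363, 8895 and 8976, with TSPAN7 IgA replicate 2 well below the rest. It fell by 0.22 ± 0.05 (n = 3, edgeR adjusted p = 0.00775), and by 0.16 without that library, which lost the call (edgeR adjusted p = 0.0886). With BDNF IgA its counts were 8055, 7698 and 7755, all below the untreated ones, and the value of -0.16 did not pass the test (edgeR adjusted p = 0.065).

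ATP5E, the epsilon subunit of the central stalk, had 4968, 4734 and 5074 normalised counts with TSPAN7 IgA against 5265, 5622 and 6044. It fell by 0.20 ± 0.05 (n = 3, edgeR adjusted p = 0.0219). COX6B1 had 9831, 9736 and 9714 against 10563, 10516 and 11698 and fell by 0.16 ± 0.05 (0.0314). Untreated replicate 3 was the highest library for both, and without it the calls were lost (fell by 0.14 and 0.11). ATP5E also lost its call without TSPAN7 IgA replicate 1 or 2 or untreated replicate 2 (fell by 0.17 to 0.20), and COX6B1 without any 1 TSPAN7 IgA library (fell by 0.16 to 0.17).

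SDHB was the member nearest to a call in the other direction. It had 3206, 3235 and 3459 normalised counts with TSPAN7 IgA, 2973, 3104 and 2826 with BDNF IgA, and 2871, 2648 and 3168 in untreated cells. Each TSPAN7 IgA library was above all others, and the value of 0.19 ± 0.06 narrowly missed the threshold on the edgeR adjusted p of 0.05 (n = 3). Without untreated replicate 3 it was 0.26 and passed, as did NDUFA11 at 0.36. The other subunits of complex II, SDHA, SDHC and SDHD, had values from -0.17 to 0.01 with the 2 IgAs, none past the test. ATP5A1 and ATP5B had values from -0.03 to -0.00.

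TSPAN7 IgA against BDNF IgA gave no called member, where 3.42% of all genes tested were higher and 4.5% lower. At an unadjusted p under 0.05 there were 7 members, and DESeq2 called 0. Values ran from -0.16 for NDUFA5 to 0.27 for NDUFA9, with a median of 0.02.

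Across the study, 21 of 74 members (28.4%) were called in at least 1 comparison and 53 in none, against 38.5% called of the 17548 genes tested in both series. The 11 called higher with IgA had a median canonical transcript of 669 bases and 42.9% GC, the 9 called lower with an antigen-specific IgA 1121 bases and 41.4% GC, and the 53 uncalled members 830.5 bases and 50.6% GC. After each library was corrected for its trend with GC content and length, 6 members were higher and 0 lower against IgG (median 0.11), and 5 higher and 1 lower against untreated cells (median 0.06). Of all genes 15.3% were then higher and 10.2% lower against IgG, and 15.3% and 10.7% against untreated cells. The excess of the member median over that of all genes went from 0.16 to 0.08 against IgG and from 0.12 to 0.04 against untreated cells. In the second series 7 were then lower with BDNF IgA, and 9 lower and 1 higher with TSPAN7 IgA. The shares of all genes were 5.32% lower with BDNF IgA, and 4.30% lower and 4.95% higher with TSPAN7 IgA. The member median minus that of all genes went from -0.070 to -0.040 with BDNF IgA and from -0.059 to -0.073 with TSPAN7 IgA.

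The 13 subunits encoded in the mitochondrial genome were measured in the same libraries. With IgA, 3 were higher and 1 lower than with IgG, and 3 higher and 2 lower than in untreated cells. The shares of all genes were 12.6% and 11.6%, and 12.9% and 12.1%. The higher genes were MT-ND4 (log2 fold change 1.70 against IgG), MT-ND4L (1.69) and MT-CO1 (1.48). MT-ND4 had 687301, 393032 and 2486650 normalised counts in the IgA libraries and 341584 to 393262 in the IgG libraries, so its value rested largely on IgA replicate 3. Without that library MT-ND4 stood at 0.56 and MT-CO1 at 0.41, the latter no longer called (edgeR adjusted p = 0.0946), and 8 of 13 were lower and 2 higher against IgG, with a median of -0.44. The calls of MT-ND4 and MT-CO1 against IgG were also lost without any 1 IgG library, and that of MT-ND4L without IgG replicate 2 or 3. MT-ND3 had 33338, 41533 and 40396 with IgA against 50664 to 61930 with IgG and fell by 0.54 ± 0.13 (n = 3, edgeR adjusted p = 0.0101), a call held in all 17 alternatives that kept the gene. With BDNF IgA 4 of 13 were lower, among them MT-ND3 (fell by 0.35), and with TSPAN7 IgA 1, MT-ND6 (fell by 0.28). The shares of all genes called lower were 3.18% and 4.08%.

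Of 44 assembly factors, which build the complexes but are not part of them, IgA against IgG gave 3 higher and 4 lower, and IgA against untreated cells 1 higher and 5 lower. Of all genes 12.6% were higher and 11.6% lower against IgG, and 12.9% and 12.1% against untreated cells. With libraries scaled by totals these counts were 0 and 10, and 0 and 8, beside 4.85% and 20.2%, and 5.56% and 18.3%, of all genes. With BDNF IgA 2 were higher and 3 lower, and with TSPAN7 IgA 0 and 4, beside 4.49% and 3.18%, and 4.46% and 4.08%, of all genes. COX20, which chaperones a mitochondrially encoded subunit of complex IV, fell by 0.26 ± 0.05 with BDNF IgA (n = 3, edgeR adjusted p = 0.00328) and by 0.27 ± 0.05 with TSPAN7 IgA (0.00188), in all 18 alternatives. It had 1631, 1667 and 1564 normalised counts with BDNF IgA and 1641, 1643 and 1527 with TSPAN7 IgA, all below the untreated 1921, 1913 and 1986. COX20 was named after its values were seen.

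Among 13 regulators of mitochondrial biogenesis, IgA against IgG gave 2 higher and 2 lower, and IgA against untreated cells 2 higher and 3 lower. The shares of all genes were 12.6% and 11.6%, and 12.9% and 12.1%. With library totals the counts were 0 and 4, and 1 and 3, beside 4.85% and 20.2%, and 5.56% and 18.3%, of all genes. PPARGC1B, a PGC-1 coactivator named after its values were seen, changed most. It had 909, 1169 and 987 normalised counts with IgA, 2560.1, 2809 and 3272 with IgG, and 2546, 2598 and 3371 in untreated cells. It fell by 1.49 ± 0.14 on the log2 scale against IgG (n = 3, edgeR adjusted p = 2.87e-05) and by 1.47 ± 0.14 against untreated cells (2.66e-05), in all 18 alternatives. TFAM, which packages mitochondrial DNA and activates its transcription, fell by 0.48 ± 0.16 against IgG (edgeR adjusted p = 0.0408). It fell by 0.56 ± 0.16 against untreated cells (0.0207), and the calls were lost without untreated replicate 1 or 2 in both comparisons. Against IgG TFAM also lost its call without any 1 of 6 other libraries, and without IgA replicate 3 it fell by 0.30. PPARGC1A fell by 0.42 ± 0.13 against untreated cells (0.0386), a call lost without any 1 untreated library, IgA replicate 1, or IgG replicate 1 or 2 (fell by 0.36 to 0.44). The higher regulators, also named after their values were seen, were GABPB1, a partner of GABPA, and POLRMT, the mitochondrial RNA polymerase. GABPB1 had 1071, 1051 and 1197 normalised counts with IgA against 697 to 837 with IgG and 672 to 753 in untreated cells. It rose by 0.56 ± 0.12 against IgG (n = 3, edgeR adjusted p = 0.00461) and by 0.63 ± 0.12 against untreated cells (0.00234). POLRMT rose by 0.40 ± 0.11 against IgG (0.0183) and by 0.50 ± 0.11 against untreated cells (0.00569). With library totals alone GABPB1 stood at 0.32 against IgG and POLRMT at 0.16 and 0.28, no longer called, and POLRMT against IgG also lost its call without IgG replicate 1 or 3. NRF1 (0.30), GABPA (-0.14), ESRRA (-0.06) and MYC (0.14) did not pass the test against IgG. In the second series the only call was PPARGC1B with TSPAN7 IgA (fell by 0.22 ± 0.06, edgeR adjusted p = 0.0145), lost without TSPAN7 IgA replicate 2 or 3 or untreated replicate 2.

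Of 12 tested carriers, paralogues and tissue isoforms outside the rule, 1 was higher against IgG, where 12.6% of all genes were. It was COX6B2, at 46 to 68 normalised counts with IgA and 7 to 11 with IgG. CYC1, the cytochrome c1 of complex III, had 3966, 1924 and 1752 normalised counts with IgA against 1976, 2036 and 1688 with IgG and did not pass the test, being high in IgA replicate 1 only. NDUFAB1 (0.19) and COX7A2L (0.37) did not pass against IgG. With BDNF IgA CYCS, cytochrome c itself, fell by 0.22 and ATPIF1, the inhibitor of the ATP synthase, by 0.25, and ATPIF1 fell by 0.17 with TSPAN7 IgA. CYCS lost its call without BDNF IgA replicate 3 (fell by 0.17) or untreated replicate 3 (fell by 0.16), and ATPIF1 with TSPAN7 IgA without its replicate 1 or 2 or any 1 untreated library.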

How the data were processed

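Libraries were made with a kit designed for degraded RNA. Per the methods, paired-end reads were aligned to GRCh37 with STAR and uniquely aligned reads were counted per gene with featureCounts. The submitters' processing notes list bcl2fastq 2.20.0.422, cutadapt 1.8.1 and, as a counter, HTSeq 0.6.1. The values the authors deposited are raw counts per gene symbol. The strand setting of the counting is not given in the sources used here. The second table had 57820 rows, of which 2055 exact repeats were removed (1.99% to 2.46% of counts, 4 members among them).

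Each series was fitted apart with its 9 libraries in edgeR 4.0.16 (R 4.3.3, TMM, filterByExpr, quasi-likelihood F test). The standard error was the absolute log2 fold change over the root of F. Adjustment was over all genes tested, and genes were called under 0.05. Members and gene lists were chosen with earlier results of these data known. Named were up to 6 called members with the largest and 6 with the smallest change per comparison, a fixed set of core, catalytic and paralogous subunits and regulators, and the highest and lowest level per complex. Alternatives were DESeq2 1.42.0, other scalings and filters, fewer libraries, a replicate block, a GC and length correction and leaving out each library. Scripts were tested on simulated data. Positions are from GENCODE on GRCh37, and 42 members overlap another gene and 48 have a named pseudogene. Totals ranged from 27920733 to 47381836 counts, and replicate spread was used for precision.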

Additional observations from a re-analysis of the deposited data

How the results depend on the processing

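Counts of called members moved with the processing more than their medians did. Against IgG, the 10 higher members became 0 with library totals alone, 4 with only the 6 libraries compared and 6 with the GC and length correction. The share of all genes called higher went from 12.6% to 4.85%, 9.31% and 15.3%, in that order. The 1 lower member became 4 with library totals alone and 2 with DESeq2 or no filter on low counts. It became 0 with only the 6 libraries compared, the GC and length correction, or that correction and a replicate block. The share of all genes called lower went from 11.6% to 20.2%, 14.2%, 7.24%, 7.72%, 10.2% and 9.90%, in that order. Against untreated cells, the 4 members higher with IgA became 10 with DESeq2, 9 with no filter and 8 with the replicate block. There were 7 without mitochondrially encoded genes, and 1 with library totals alone or only the 6 libraries compared. The share of all genes called higher went from 12.9% to 14.9%, 7.02%, 12.7%, 13.2%, 5.56% and 10.5%, in that order. The 2 lower members became 4 with library totals alone. They became 1 with no filter, only the 6 libraries compared, the GC and length correction, or that with the replicate block. The share of all genes called lower went from 12.1% to 18.3%, 7.25%, 8.85%, 10.7% and 10.4%, in that order. Library totals alone also turned the medians to -0.081 and -0.097, where all genes moved with them. When 1 library was left out, 2 to 26 members were higher and 0 to 2 lower against IgG. Against untreated cells 1 to 16 were higher and 0 to 3 lower. Among all genes 7.19% to 13.6% were higher and 6.59% to 14.9% lower against IgG. Shares against untreated cells were 7.37% to 13.5% and 6.67% to 14.7%.

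With BDNF IgA the 6 lower members became 12 with no filter, and 3 to 10 when 1 library was left out. The share of all genes called lower went from 3.18% to 2.18%, and to 1.53% to 6.74%. With TSPAN7 IgA the 8 lower members became 13 with only the 6 libraries compared, and 3 to 12 when 1 library was left out. The share of all genes called lower went from 4.08% to 6.45%, and to 1.71% to 5.99%. The 0 higher members became 1 with DESeq2, library totals alone, no filter, only the 6 libraries compared, or without mitochondrially encoded genes. The same held with the GC and length correction, the replicate block or both. When 1 library was left out, 0 to 2 were higher. Among all genes 2.70% to 6.50% were higher in those alternatives, and 2.24% to 6.03% with 1 library left out. Between TSPAN7 IgA and BDNF IgA the count of higher members became 1 with no filter. It ranged from 0 to 2 when 1 library was left out. Among all genes 2.33% were higher with no filter and 1.02% to 8.10% with 1 library left out. The count of lower members became 1 with the GC and length correction and 2 with that and the replicate block. It ranged from 0 to 2 when 1 library was left out. Among all genes 3.59% and 4.23% were lower under these corrections, and 1.49% to 8.98% with 1 library left out. The causes were not tested. No value of a member that was called changed sign under any alternative.

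Deviations of same-numbered libraries were weakly correlated at most, apart from untreated and IgG replicates 3 of the first series, at 0.25. The untreated and IgG libraries numbered 1 or 2 gave 0.06 each, and differently numbered pairs of these groups -0.21 to 0.14. Same-numbered pairs that held an IgA library gave -0.07 to 0.03, and those of the second series -0.02 to 0.09. Replicate numbers were not taken to pair the samples in the main fit. Whether untreated and IgG replicates 3 shared a batch was not tested. With the replicate block 10 members were higher and 1 lower against IgG, 9 lower with BDNF IgA, and 9 lower with TSPAN7 IgA. The shares of all genes were 12.4% and 11.7% against IgG, 3.77% lower with BDNF IgA and 4.57% lower with TSPAN7 IgA. All members had at least 80 counts in every library, and the part of depth in the calls was not tested.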

Other observations

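Lists of metabolic enzymes that feed the respiratory chain were measured alongside it, and give values not described above. Of 18 genes of glucose uptake and glycolysis, 13 were higher and 0 lower with IgA than with IgG (median log2 fold change 0.46), and 12 were higher and 0 lower than in untreated cells (median 0.48; edgeR, adjusted p under 0.05). With library totals alone 6 and 7 were higher, and without IgA replicate 3, 14 and 13. Without IgA replicate 1, 11 were higher in each comparison. The shares of all genes called higher were 12.6% against IgG and 12.9% against untreated cells, and with library totals alone 4.85% and 5.56%. They were 12.9% and 13.2% without IgA replicate 3, and 10.4% and 10.9% without IgA replicate 1. PFKP, a phosphofructokinase, had a value of 1.07 against IgG, LDHA, which makes lactate, 0.74, the hexokinases HK1 and HK2 0.83 and 0.67, and the glucose transporter SLC2A1 0.74, and these calls held in all 18 alternatives. These genes were named after their values were seen.

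With BDNF IgA 1 glycolytic gene was higher, PFKM (0.26), and 1 lower, LDHA (fell by 0.27), beside 4.49% and 3.18% of all genes. With the GC and length correction 1 was higher and 7 lower, beside 3.74% and 5.32% of all genes. PFKM lost its call without BDNF IgA replicate 1 or 3 or untreated replicate 2 or 3, while LDHA kept its call in all 18 alternatives. With TSPAN7 IgA 2 were lower, ALDOA and ALDOC (3 with the correction), beside 4.08% of all genes (4.30% with the correction). ALDOA lost its call without TSPAN7 IgA replicate 2 or 3 or untreated replicate 1 or 2, and ALDOC without TSPAN7 IgA replicate 2. Of 12 citric acid cycle enzymes 3 were higher with IgA than with IgG (median 0.24) and 5 than in untreated cells (median 0.30). The shares of all genes were 12.6% and 12.9%. With library totals alone 0 were higher, beside 4.85% and 5.56% of all genes, and 0 were called with either antigen-specific IgA by edgeR.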
